A study of Mus musculus with 3 samples.

Results

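Inhibitory checkpoint receptors are surface proteins that restrain T cells after activation, and the 8 genes described here encode 8 of them: Pdcd1 (PD-1), Ctla4 (CTLA-4), Lag3 (LAG-3), Havcr2 (TIM-3), Tigit (TIGIT), Cd244a (2B4), Cd160 (CD160) and Btla (BTLA). The members were taken from a list of gene symbols, and all 8 had a named probe set on the array, 1 each, out of 19505 genes with a named probe set. They were followed in 3 cultures of mouse CD8 T cells that had received CD3 and CD28 stimulation and Tc1 cytokines, a setting that steers CD8 T cells toward cytotoxic effectors. The control culture had no added cholesterol, one treated culture had 0.5 µg/ml of it and the other 0.75 µg/ml. Stimulation and cytokines were shared by all 3. The sources used here do not give strain, age, number of animals, or the duration and carrier of the cholesterol, so carrier and cholesterol cannot be told apart. Each condition was 1 array, so there is no replicate spread and no test, and precision is limited by having so few arrays.

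These receptors work in different ways. PD-1 carries tyrosine motifs in its tail that recruit the phosphatase SHP-2 and dampen signals from the antigen receptor and CD28. CTLA-4 competes with CD28 for the ligands CD80 and CD86. TIGIT competes with the activating receptor CD226 for CD155, while BTLA and CD160 both bind HVEM. LAG-3 binds MHC class II and the secreted protein FGL1, TIM-3 binds several ligands including galectin-9, and 2B4 binds CD48. All of them can appear on recently activated cells, and persistent high expression of several together is a known feature of exhausted CD8 T cells.

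Ctla4 and Lag3 were lower at 0.75 µg/ml than on both other arrays, Pdcd1, Btla and Tigit lay near their control values, Cd160 was somewhat higher at 0.75 µg/ml, and Havcr2 and Cd244a were dim throughout. Upstream sequences of 3 members are shown because these members followed different courses over the doses: Ctla4 was lower at 0.75 µg/ml only, Havcr2 was dim but higher on each array with more cholesterol, and Pdcd1 was nearly flat. Each is the run of 250 bases before the annotated transcription start, 5′ to 3′ on the gene's strand, from RefSeq on build GRCm38.p6, and none includes bases after that start. Capitals mark matches, on either strand, to the NFAT core GGAAA or the AP-1 motif TGANTCA, which belong to factors downstream of T cell receptor signalling. The Ctla4 stretch is chr1:60908775-60909024 (+), the Havcr2 stretch chr11:46454681-46454930 (+) and the Pdcd1 stretch chr1:94052554-94052803 (-).
Ctla4: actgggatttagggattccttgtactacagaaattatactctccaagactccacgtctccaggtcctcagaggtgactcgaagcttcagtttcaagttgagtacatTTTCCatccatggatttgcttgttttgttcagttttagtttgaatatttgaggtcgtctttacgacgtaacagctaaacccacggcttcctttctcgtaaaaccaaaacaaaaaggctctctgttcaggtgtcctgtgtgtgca
Havcr2: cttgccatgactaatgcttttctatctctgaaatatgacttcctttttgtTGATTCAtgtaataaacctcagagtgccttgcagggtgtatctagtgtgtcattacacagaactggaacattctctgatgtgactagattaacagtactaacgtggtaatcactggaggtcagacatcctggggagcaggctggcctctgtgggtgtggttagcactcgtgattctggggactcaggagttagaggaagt
Pdcd1: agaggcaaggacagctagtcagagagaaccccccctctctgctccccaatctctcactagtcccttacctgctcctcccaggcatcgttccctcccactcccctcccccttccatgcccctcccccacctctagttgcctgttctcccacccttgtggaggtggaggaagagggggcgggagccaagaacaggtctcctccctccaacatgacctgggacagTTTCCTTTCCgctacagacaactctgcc

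The Ctla4 stretch held 1 NFAT core match, beginning 144 bases before the start, and the Pdcd1 stretch held 2, beginning 28 and 23 bases before it. The Havcr2 stretch held none, and 1 AP-1 match beginning 200 bases before the start. The NFAT core was present in 55.6% and the AP-1 motif in 6.75% of 32851 upstream stretches of the same length. Of the members, 7 had such an entry, all but Lag3, with 8 stretches in all since Cd160 had 2. The stretches of Cd244a, Btla and Tigit and 1 of those of Cd160 lie inside the annotated span of the gene, before starts within it. Of the 8, 5 held an NFAT core match and 2 an AP-1 match. The STAT palindrome TTCNNNGAA was found in 1 of the 8, a Cd160 stretch, against 7.02% of all stretches. The sterol regulatory element TCACNCCAC was found in 0 of the 8, against 1.05% of all. No motif overlapped another in the stretches printed. A match is a description of letters, and no match says only that these letters are not in this window.

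The values are the authors' linear intensities, and a value is called bright here if it exceeds 102, the highest 95th percentile of the negative-control probe sets over the 3 arrays. Of the 8 members, 6 were bright on all arrays and 2, Havcr2 and Cd244a, were under that level on all arrays. A filter on mean log2 level (an intensity of at least 32.4), which 10940 genes passed, let through 7 members and left out Cd244a. Array medians over transcript probe sets were 43.3, 43.5 and 44.5 from control to the higher dose. Genes listed for CD8 T cells were bright on all arrays (7 of 7 measured). Of these, Cd8a and Cd8b1 mark CD8 T cells, and the others are shared with CD4 T cells. Cd3e was at 4364, 4650.1 and 4594, while Cd8a (4225, 4164 and 3313), Cd8b1 (2574, 2621 and 2030) and Cd3d (1603, 1599 and 1269) were lower at 0.75 µg/ml. Levels of different genes come from different probes and are not ranked against each other.

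**Figure D1:**
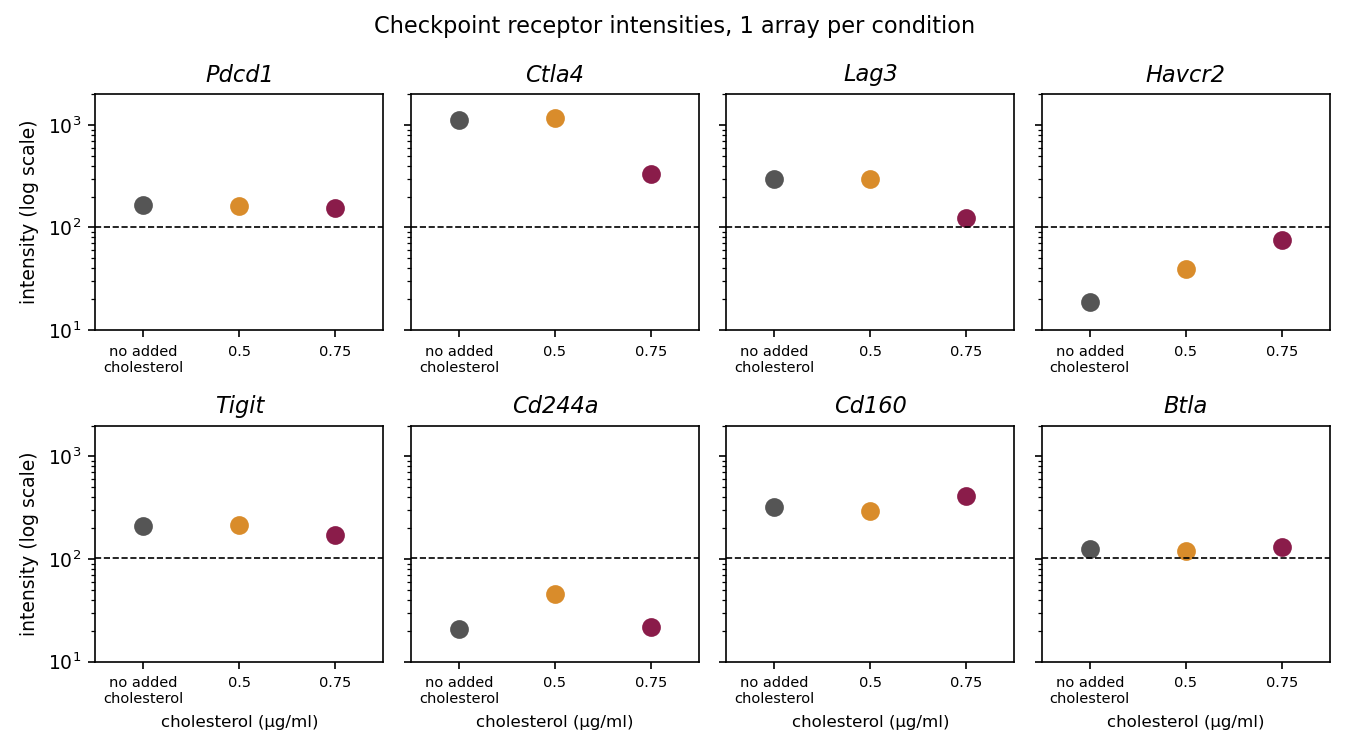
Intensity (log axis) of each checkpoint receptor gene on the control array and at 0.5 and 0.75 µg/ml cholesterol, 1 array per point, with the negative controls' highest 95th percentile (102) as a dashed line. Ctla4 and Lag3 sit lower at 0.75 µg/ml than on the other arrays, and Havcr2 and Cd244a stay under the line.

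The low-dose comparison asks what 0.5 µg/ml cholesterol did to these transcripts. Of the 6 bright members 0 differed from the control by 2-fold or more (0.0274% of bright genes did), and their log2 differences ran from -0.13 for Cd160 to 0.06 for Ctla4. Ctla4 was at 1166 against 1115 in the control. Lag3 was at 294 on both arrays, with identical deposited values. Exact ties of this kind held for 3.33% of the 19505 genes between these 2 arrays, and for 2.13% of those bright on all arrays. Tigit was at 216 against 209, Pdcd1 at 161 against 165, Btla at 121 against 126 and Cd160 at 293 against 322. The middle 95% of the 7309 genes bright on all arrays ran from -0.34 to 0.32 at this dose, and all 6 bright members lay inside it. Their differences were also smaller than the SD of positive-control probe sets past the level filter between the same arrays, 0.30.

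In the deposited values 2 of the 8 members exceeded the control by 2-fold or more at 0.5 µg/ml (0.0914% of genes past the level filter) and 0 fell short of it by that much (0.0548%). Both were the dim ones, and of them only Havcr2 passed that filter. Havcr2 was at 39.5 against 18.8 and Cd244a at 46.1 against 20.7. The Havcr2 intensity exceeded 63.2% of negative controls on the control array and 84.2% at 0.5 µg/ml, and that of Cd244a 66.1% and 86.8%. No fold is given for them, since both values of each pair lay among the negative controls. Among the 11493 genes under the background level on all arrays, 0.191% were at least 2-fold higher at this dose.

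The high-dose comparison asks the same of 0.75 µg/ml. Ctla4, the receptor that takes CD80 and CD86 away from CD28, was at 335, against 1115 in the control and 1166 at 0.5 µg/ml. The value at 0.75 µg/ml thus stood apart from both others, which lay close together. The log2 difference from the control was -1.73, or 3.33-fold lower, and 14 of the 7309 bright genes (0.192%) were at or below it. The positive-control SD between these arrays was 0.31.

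Lag3, whose product binds MHC class II, was at 123 at 0.75 µg/ml and at 294 on each of the other arrays. It had the same course as Ctla4, with a smaller difference of -1.25, or 2.39-fold lower, and 48 of the 7309 bright genes (0.657%) were at or below that. Its intensity at 0.75 µg/ml was near the background level of 102 and exceeded 95.9% of negative controls on that array. Of the 8 members these 2 were at least 2-fold lower, against 1.57% of genes past the level filter and 0.985% of bright genes.

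The other bright members differed from the control by less than 2-fold at 0.75 µg/ml, and all 4 lay within the middle 95% of bright genes, -0.68 to 0.48. Pdcd1, the gene of PD-1, was at 154 against 165, a log2 difference of -0.10. Tigit was at 172 against 209, a difference of -0.29. Both were below the control under each scaling of the arrays tried, over ranges of -0.14 to -0.03 for Pdcd1 and -0.33 to -0.23 for Tigit. Scalings of the same arrays do not show how repeats would vary. As deposited, both differences were smaller than the positive-control SD between these arrays, 0.31.

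Of the HVEM-binding receptors, Cd160 was above the control and Btla was close to it. Cd160 was at 414 against 322, a log2 difference of 0.36, and 6.05% of bright genes were at or above it. Btla was at 130 against 126, a difference of 0.05, and 42% of bright genes were at or above it. That difference was smaller than the positive-control SD between these arrays, 0.31. At 0.5 µg/ml both genes were below the control (-0.13 for Cd160 and -0.06 for Btla). The Btla difference ranged from 0.01 to 0.09 over the scalings tried, and that of Cd160 from 0.32 to 0.38.

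Among the dim members, Havcr2 was at 75.5 at 0.75 µg/ml against 18.8 in the control, and exceeded 92.8% of negative controls. It was the only member whose intensity was higher on each array with more cholesterol, and it stayed under 102 on all 3. In the deposited values it counts as the 1 member at least 2-fold higher, against 0.356% of genes past the level filter. Cd244a was at 21.7 against 20.7. With all values under 102 raised to that level, 2 members were at least 2-fold lower and 0 higher, against 0.896% and 0.137% of genes.

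**Figure D2:**
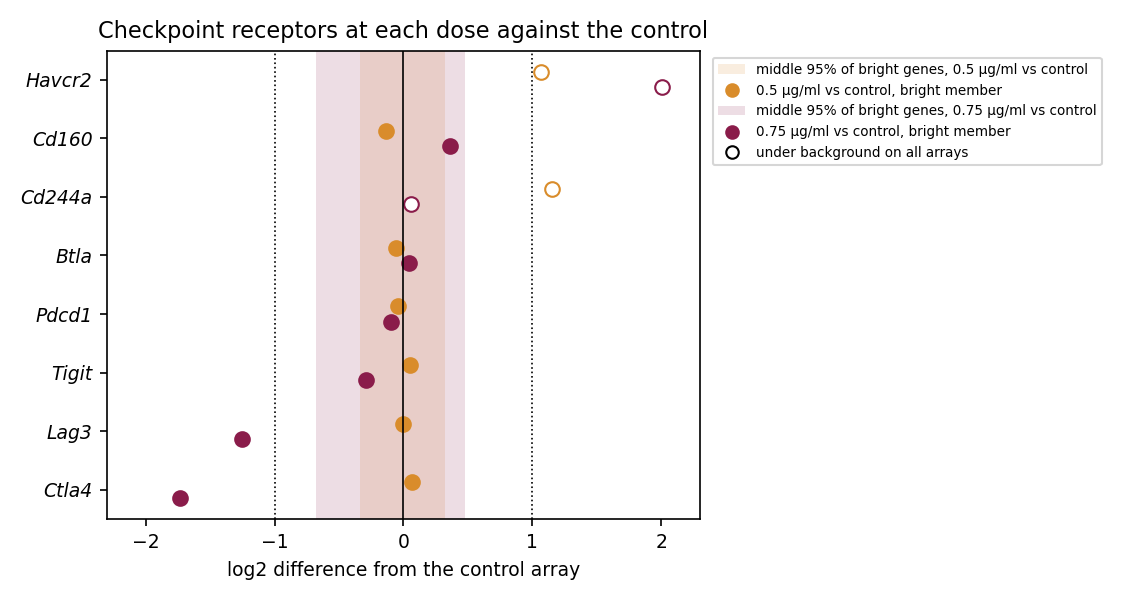
Log2 difference from the control array for each checkpoint receptor gene at 0.5 µg/ml (orange) and 0.75 µg/ml (purple), with bands for the middle 95% of the 7309 bright genes and dotted lines at 2-fold. Filled points are members bright on all arrays, and open points (Havcr2, Cd244a) are drawn from values under the background level. Ctla4 at -1.73 and Lag3 at -1.25 are the filled points outside the bands.

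The 8 members had a median log2 difference of 0.02 at the lower dose and -0.03 at the higher one, beside 0.01 and 0.00 over the 10940 genes past the level filter. At 0.75 µg/ml 4 members were above and 4 below the control, although Cd244a was marginally below it under quantile normalization. With a threshold of 1.5-fold in place of 2-fold, 2 members differed at 0.5 µg/ml (1.94% of genes past the level filter), 3 at 0.75 µg/ml (7.08%) and 4 between the doses (5.52%), Cd160 being absent from all of these counts. The counts at 0.5 µg/ml and between the doses include Cd244a, which did not pass that filter. In bulk RNA, fewer cells expressing a receptor and less RNA per cell cannot be told apart.

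The last comparison sets the doses against each other. At 0.75 µg/ml 3 of the 8 members were at least 2-fold lower than at 0.5 µg/ml (1.19% of genes past the level filter) and 0 at least 2-fold higher (0.402%). They were Ctla4, at 335 against 1166 or 3.48-fold lower, Lag3, at 123 against 294 or 2.39-fold lower, and the dim Cd244a, at 21.7 against 46.1. Cd244a did not pass the level filter, and of the 7 members that did, 2 were at least 2-fold lower. With dim values raised to 102 the count of lower members was 2 (0.686% of genes). For Ctla4, 8 of the 7309 bright genes (0.109%) had a difference as low or lower, and for Lag3 23 (0.315%). Cd160 was at 414 against 293, a log2 difference of 0.50, and 1.59% of bright genes were at or above it. Tigit differed by -0.34 and Btla by 0.11, and Pdcd1 by -0.06, or 0.00 under quantile normalization.

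The gene pattern most like that of each bright member was sought among the other genes bright on all arrays, 7096 after predicted genes and the like were left out by their symbols. This also dropped some ordinary genes, such as those with symbols beginning with Rn, so the nearest genes and counts cover the remainder only. Likeness was the distance between pairs of log2 differences from the control, and a pair from 3 arrays is a thin description. For Ctla4 the nearest were the glucose transporter gene Slc2a3, at 995, 990 and 308 (distance 0.08), and Ndrg2, at 386, 391 and 125 (0.12). Only 6 genes lay within 0.25 of Ctla4. For Lag3 the nearest were Ripor2, at 572, 562 and 241 (0.03), and Phf11b, at 887, 902 and 365 (0.04), with 15 genes within 0.25. The near-flat members had many such neighbours, 3842 for Pdcd1 (nearest Zbtb18 and Fam126a), 4057 for Btla (Prim2 and Gstt3) and 1798 for Tigit (Cflar and Clec2d). Cd160 had 818, with Mrm3 and Mtfr2 nearest.

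Ligands of the receptors showed no common direction. Of 15 measured, 10 were bright on all arrays, and at 0.75 µg/ml 7 were above and 8 below the control, with a median of -0.01 (-0.07 to -0.04 under the scalings tried). At the lower dose 0 of the 15 differed 2-fold (0.146% of genes past the level filter did). At the higher dose 1 did, on the higher side (0.356%). It was Lgals3, the gene of galectin-3, at 106, 209 and 273 from the control to the higher dose. Cd274, which encodes the PD-1 ligand PD-L1, was at 305, 272 and 242, a difference of -0.33 at 0.75 µg/ml. Pvr, which encodes the TIGIT and CD226 ligand CD155, was at 176, 237 and 134. Fgl1, the gene of the LAG-3 ligand and named after its values were seen, was under the background level on all arrays (8.73, 7.85 and 7.10). Its relative Fgl2, counted among the 15 though not an established ligand of these receptors, was at 284, 359 and 189. Tnfrsf14, which encodes HVEM, was at 447, 376 and 407.

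Activating counterparts that share ligands or family with the members differed less than 2-fold in all 3 comparisons (0 of 11 measured, 10 of them bright on all arrays). The list is mostly of receptors, but Tnfsf14 encodes a ligand, and Cd96 has also been described as inhibitory. Over genes past the level filter, 0.146% differed 2-fold or more at 0.5 µg/ml, 1.93% at 0.75 µg/ml and 1.59% between the doses. In a list this short, a count of 0 is near those shares. Cd28, which competes with Ctla4's product for ligands, was at 1852, 1679 and 1458. Its difference at 0.75 µg/ml was -0.34, and that of Ctla4 was lower than it by 1.39 on the log2 scale. Cd226, the activating partner of Tigit, was at 465, 435 and 641, a difference of 0.46 where that of Tigit was -0.29. Icos, a costimulatory receptor of the CD28 family, was at 2646, 3095 and 3489. Tnfsf14, the gene of LIGHT, another HVEM partner, was at 116, 108 and 145.

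Signalling partners were close to the control. Of 14 measured, 12 were bright on all arrays and 0 differed 2-fold in any comparison. That count is near the shares over genes past the level filter (0.146%, 1.93% and 1.59% in the 3 comparisons). The median of 0.03 at 0.75 µg/ml turned to -0.01 under median centring and 0.00 under scaling on the positive controls. Ptpn11, which encodes SHP-2, was at 173 on all 3 arrays, an exact tie that 0.538% of genes and 0.205% of bright genes shared. Ptpn6, the gene of the related phosphatase SHP-1, was at 1184, 1296 and 1334, and the inositol phosphatase gene Inpp5d at 487, 542 and 561. Pik3r1, a regulatory subunit of PI3 kinase, was at 766, 708 and 603, a difference of -0.35, and the phosphatase gene Ptpn2 differed by 0.11. For Lck no named probe set was used here.

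Genes for traffic, shedding and turnover of the receptors also stayed within 2-fold (0 of 14 measured in all 3 comparisons). That count is likewise near the shares over genes past the level filter (0.146%, 1.93% and 1.59%). The median of 0.04 at 0.75 µg/ml turned to 0.00 under median centring. Trat1, the gene of the adaptor TRIM that brings CTLA-4 to the surface, was at 98.6, 87.7 and 151, at least 1.48-fold higher at 0.75 µg/ml against the background level, under which the control lay. The clathrin adaptor gene Ap1m1, whose complex routes CTLA-4 to lysosomes, was at 846, 1098 and 1030.0. Fbxo38, whose product marks PD-1 for degradation, was at 577, 530.0 and 473, and the adaptor gene Lax1 at 302, 291 and 236. Adam10 and Adam17, whose proteases cleave LAG-3 from the surface, differed by 0.12 and 0.01, and Lrba, which protects CTLA-4 from lysosomes, by -0.08. These 3 were named after their values were seen.

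Other inhibitory receptors had a median of 0.16 at 0.5 µg/ml, with 12 of 16 measured members above the control and 3 below, and of 0.23 at 0.75 µg/ml, with 10 above and 6 below. Only 8 were bright on all arrays, and both medians were 0.00 with values under 102 raised to that level. In the deposited values 2 passed 2-fold at 0.5 µg/ml, Klrd1, at 297 against 138, and its partner gene Klrc1, at 121 against 50.3 and named after its values were seen. The control value of Klrc1 lay under the background level, against which it was at least 1.19-fold higher. With dim values raised 1 gene, Klrd1, passed 2-fold (0.0183% of genes were that much higher). At 0.75 µg/ml 0 differed 2-fold (1.93% of genes past the level filter did). Klrd1 was then at 200 and Cd5, a scaffold that dampens antigen receptor signals, at 826 against 622. Lilrb4a was at 190 against 271, where signal from its near-identical copy Lilrb4b cannot be told apart, and the TGF-beta receptor gene Tgfbr2 at 363 against 506. Neither Adora2a nor Pvrig was analysed here.

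**Figure D3:**
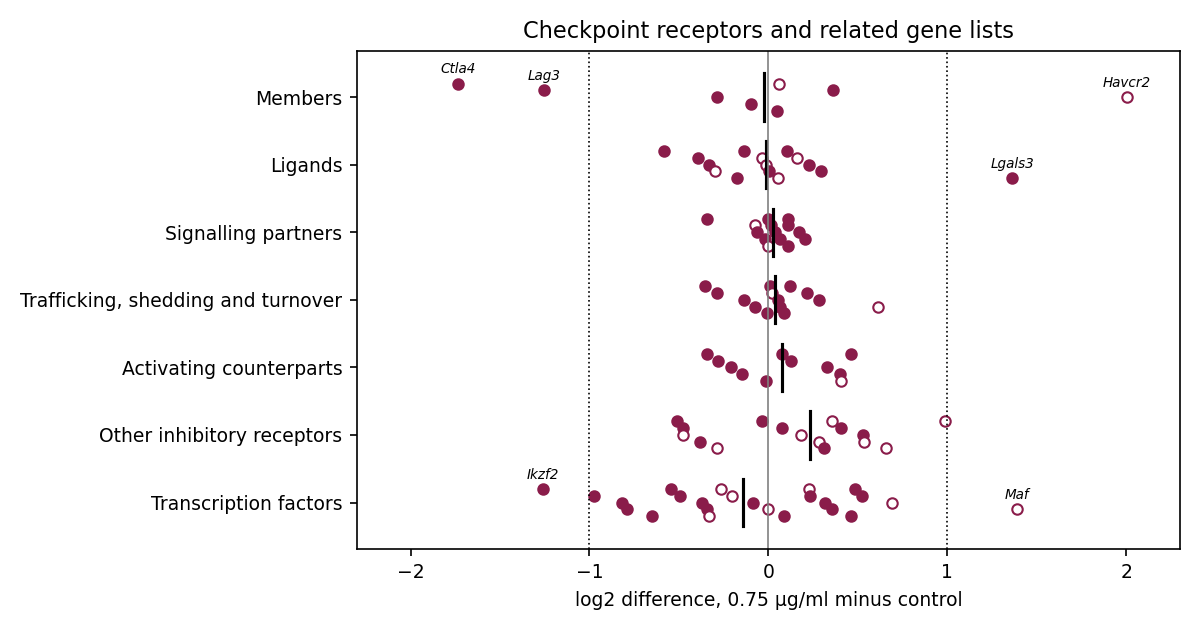
Log2 difference between 0.75 µg/ml and the control for the checkpoint receptor genes (top row) and 6 lists of related genes, 1 point per gene and a bar at each list's median, with dotted lines at 2-fold. Filled points are bright on all arrays, open points are not, and genes past 2-fold are named. The spread of the members, from Ctla4 at -1.73 to the dim Havcr2, is wider than that of the signalling partners. Of those partners 0 passed 2-fold, which 1.93% of genes past the level filter did. Other lists also spread widely, the transcription factors from -1.26 (Ikzf2) to 1.39 (the dim Maf) and the ligands from -0.58 (Fgl2) to 1.36 (Lgals3).

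Transcription factors linked to expression of the receptors differed in both directions at 0.75 µg/ml, 10 above and 14 below of 24 measured, with a median of -0.14 (0.00 with dim values raised). Ikzf2, the gene of Helios, was the 1 at least 2-fold lower, at 418, 253 and 174 (1.57% of genes past the level filter were). The 1 at least 2-fold higher in the deposited values (0.356% of genes) was Maf, named after its values were seen. Maf was at 14.3, 24.8 and 37.7, under the background level throughout, and did not pass the level filter. Among genes under that level on all arrays, 0.505% were at least 2-fold higher. Between the doses 1 was at least 2-fold higher in the deposited values (0.402% of genes past the level filter were). It was Egr2, likewise named afterwards, at 106, 79.5 and 170 from the control to the higher dose. Its value at 0.5 µg/ml lay under the background level, against which Egr2 was at least 1.67-fold higher at 0.75 µg/ml. With dim values raised or 16 added 0 of the 24 were at least 2-fold higher. Nr4a2 (375, 311 and 212) and Nr4a3 (980, 722 and 567), orphan receptors induced by antigen receptor signals, were lower with each step of cholesterol, as was the AP-1 gene Jun (370, 268 and 188), which passed 2-fold under median centring and under scaling on the positive controls. Other bright factors were higher than the control at 0.75 µg/ml. Among them were Irf4 (818, 777 and 1046), Batf (255, 275 and 358), Nfatc2 (267, 289.8 and 368) and Eomes (559, 629.6 and 806), named after their values were seen. Nr4a1 was at 116, 114 and 92.5, so the control exceeded the background level, under which the value at 0.75 µg/ml lay, by 1.14-fold. Nfatc1, a calcium-driven activator of Pdcd1, was at 736, 735 and 783, and Tox, a regulator of exhaustion, at 493, 540 and 314. The part of these factors in the receptor differences was not tested.

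Ctla4 is also strongly expressed by regulatory and activated CD4 T cells, so markers of those cells stand beside it. Of 4 measured CD4 and regulatory T cell markers, 2 were bright on all arrays. The 4 summed to 467, 468 and 431 from the control to the higher dose, mostly from the 2 bright ones. Cd4 itself was at 61.6, 39.4 and 35.7, under the background level on every array, and Cd40lg was at 9.92, 11.3 and 9.60. The bright markers differed in direction, with Zbtb7b at 178, 235 and 209 and Ikzf4 at 217, 182 and 176. Ikzf2, listed here among the transcription factors, is also used as a marker of regulatory T cells and was at 418, 253 and 174. For Foxp3 no named probe set was used here. All 3 measured NK cell markers and all 7 of macrophages, dendritic cells and monocytes were under the background level on all arrays. The NK markers summed to 50.3, 48.7 and 45.9, and those of macrophages, dendritic cells and monocytes to 130, 151 and 141. Of 4 B cell markers 0 were bright on all arrays, with sums of 176, 156 and 160. The 7 measured genes listed for CD8 T cells, most of them shared with CD4 T cells, had a median difference of -0.09 at 0.75 µg/ml. Cd8a, Cd8b1 and Cd3d differed by -0.35, -0.34 and -0.34, Cd3g by -0.09, Cd247 by -0.05, Zap70 by 0.00 and Cd3e by 0.07. The part of cell composition in the Ctla4 and Lag3 differences was not tested.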

How the data were processed

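Total RNA of 3 cultures, extracted with Trizol and labelled by a whole-transcript sense protocol per the labels' protocols, was hybridised to 1 array each. The authors deposited 1 linear intensity per probe set and array. The sources used here do not give their software, background correction or normalization. Of 28846 probe sets, 22206 were transcripts, 19572 of them with 1 gene symbol in the platform annotation, and 5222 negative and 1324 positive controls were kept apart. The brightest probe set per gene was used, log2 was taken after a floor of 1 that 0 values fell under, and no further scaling was applied. A gene counted as different from 2-fold. The named genes were the 8 members, up to 4 bright genes per list with the largest difference at 0.75 µg/ml, a fixed set (such as Cd28, Icos and Tox) and the 2 genes most like each bright member. Members and lists were chosen with earlier results of these data known. Alternatives changed the scaling, the floor, the probe set rule, the level filter and the fold threshold. Motifs were searched by exact letters on both strands. Calculations used Python 3.11.15, numpy 2.4.6 and pandas 2.3.3, and plots matplotlib 3.10.9. Only the 2-fold count was tried on simulated data, with planted changes larger than the cut, and the other steps were not.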

Additional observations from a re-analysis of the deposited data

How the results depend on the processing

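The count of members at least 2-fold different at 0.5 µg/ml was 2 in the deposited values. It was 0 when intensities under 102 were set to 102, 0 with 16 added to every intensity before log2, and 1 among members past the level filter, which leaves out Cd244a. All other alternatives, including a 1.5-fold threshold, left the counts of the 3 comparisons within 1.5 times their value. Over the alternatives the members' median ranged from 0.00 to 0.02 at 0.5 µg/ml, from -0.10 to -0.02 at 0.75 µg/ml and from -0.23 to -0.03 between the doses, the last with dim values raised against -0.20 as deposited. Of 120 single-gene values under alternatives that could change them, 111 moved by less than the positive controls' SD and 9 by more, all 9 of Havcr2 or Cd244a when dim values were raised or 16 was added. Averaging probe sets could change no member, since each had 1. Over the 3 scalings tried and the deposited values, Ctla4 ranged from -1.77 to -1.73 and Lag3 from -1.29 to -1.22 at 0.75 µg/ml, while Lag3 at 0.5 µg/ml ranged from -0.01 to 0.00. No paired analysis was possible because each condition had 1 array. Signal over background limits Havcr2 and Cd244a, whose order over the arrays lies within the range of the negative controls.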

Other observations

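Chromosomal neighbours of the members, by RefSeq gene order on GRCm38.p6, had different courses. Ctla4 lies between Cd28 and Icos, all of the CD28 family. At 0.75 µg/ml the log2 differences from the control were -0.34 for Cd28, -1.73 for Ctla4 and 0.40 for Icos. Lag3 lies between Cd4, which was under the background level on all arrays, and Ptms, at 532, 525 and 365 from the control to the higher dose, a difference of -0.55 beside -1.25 for Lag3. Cd244a, dim on all arrays, lies beside Ly9, another SLAM-family gene, which was bright at 682, 666 and 719. Btla, at 126, 121 and 130, lies beside Cd200, the gene of a ligand for an inhibitory receptor, at 119, 113 and 106. These neighbours were looked up after the member values were seen.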
